A study of Homo sapiens with 6 samples.

Results

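The data concern 9 enzymes of aspartate, asparagine, alanine, proline, glutamate and glutamine metabolism, namely ASNS, GOT1, GOT2, GPT2, PYCR1, ALDH18A1, GLUD1, GLUL and PC. They were chosen by gene symbol, from general knowledge, as enzymes whose pathways depend on or respond to respiration. Earlier results of these data were known when they were chosen. The deposited table held counts for 19845 gene symbols, of which 11861 passed the filter on low counts, and all 9 enzymes were in the table and passed it. RNA came from Molm13 cells, a human acute myeloid leukemia (AML) line with a rearrangement of MLL, here stably expressing the Cas9 nuclease. In every library the cells carried a single guide RNA (sgRNA) from the lentiviral vector ipUSEPR and had been selected with puromycin. The 3 sgCtrl libraries carried 3 different control guides and the 3 sgCOX4I1 libraries carried 3 different guides against COX4I1, a nuclear-encoded subunit of respiratory Complex IV (cytochrome c oxidase). No cloning step and no time of harvest was stated, and nothing said that the libraries came from separate cultures beyond their guides, so p-values measure the spread between these libraries, in which the effect of each guide is included.

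Respiration supplies amino acid synthesis in proliferating cells in more than one way. The electron transport chain returns NADH to NAD+, and the mitochondria need NAD+ to make oxaloacetate, the precursor of aspartate and, through ASNS, of asparagine. Proline synthesis by ALDH18A1 and PYCR1 runs the other way, drawing on glutamate and consuming NAD(P)H, while glutamine and glutamate feed carbon into the tricarboxylic acid cycle through GLUD1 or through transaminases such as GPT2.

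Of the 9 mRNAs, 3 were higher in sgCOX4I1 than in sgCtrl libraries at a Benjamini-Hochberg adjusted p under 0.05 over all genes tested (quasi-likelihood F test of edgeR), namely GPT2, ALDH18A1 and PYCR1, and none was lower. Over all 11861 genes the share called was 2.08% in either direction and 1.06% for higher in sgCOX4I1. The 3 rises were of modest size, from 1.29-fold for PYCR1 to 1.43-fold for GPT2. ASNS had a fold of similar size, 1.29, and missed the threshold, with a wider spread between libraries. By the rule of the study, which adds a fold change of at least 2, 0 of the 9 were called by that edgeR test, by DESeq2 or by limma-voom. Over all genes, 0.202% were called by that rule with edgeR. An unadjusted p under 0.05 by edgeR was found for 5 of the 9 and for 2054 of all 11861 genes tested. The median log2 fold change (sgCOX4I1 over sgCtrl) of the 9 was 0.19, with 7 above 0, against -0.0023 for all genes tested. In bulk RNA, a change in every cell and a change in the share of cells of a kind cannot be told apart.

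COX4I1, the targeted gene, was 513, 502 and 463 CPM (counts scaled for library size by edgeR's TMM method) in sgCtrl #1, #2 and #3, against 132, 378 and 133 CPM in sgCOX4I1 #1, #2 and #3. Its log2 fold change was -1.21 ± 0.29 (SE, edgeR), with an adjusted p of 0.0512 by edgeR, 0.234 by DESeq2 and 0.0291 by limma-voom. The targeted gene itself was thus not called by the edgeR test. The sgCOX4I1 #2 library kept 76.7% of the sgCtrl mean of COX4I1 mRNA, compared with 26.7% and 27.0% in sgCOX4I1 #1 and #3, so values of the enzymes without it are given below. These counts do not measure COX4I1 protein, which the paper reported as reduced by immunoblot in cells with independent COX4I1 guides. Library totals ranged from 17241014 to 30861943 counts. All 10 markers listed for the monocytic leukemia line were at 1 CPM or more in every library. Their summed level was 2423 to 3358 CPM in sgCtrl and 3095 to 4196 CPM in sgCOX4I1. Of these sums LYZ alone made up 1149 to 2100 CPM in sgCtrl and 2026 to 3104 CPM in sgCOX4I1, so they do not show a rise of the markers as a set. Of these 10, MPO alone passed the test and was lower in sgCOX4I1 (log2 fold change -1.06) and LYZ had a log2 fold change of 0.77 with an adjusted p of 0.0534, both in the same edgeR test. Of 9 markers of other cell types, 8 were under 1 CPM in every library and 4 of these, CD3D, HBA1 and EPCAM among them, were at 0 counts, and their summed level was 9.09 to 14.2 CPM in sgCtrl and 7.32 to 11.0 CPM in sgCOX4I1, of which KRT18 made up 6.86 to 13.8 CPM. The part of these marker differences in the enzyme values was not tested.

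**Figure D1:**
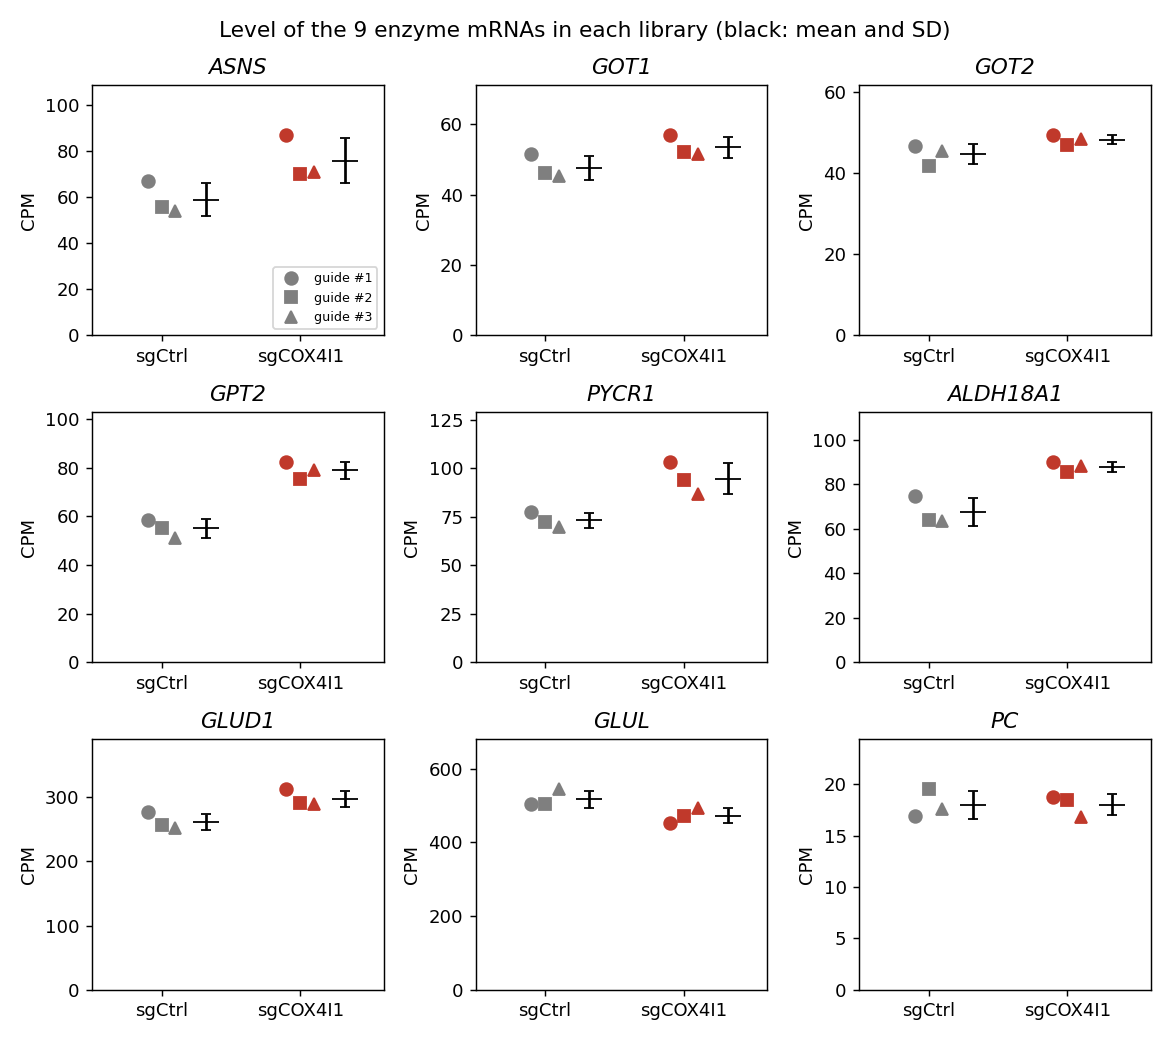
Level of each of the 9 enzyme mRNAs in CPM (vertical axes, each from 0) in the 3 sgCtrl (grey) and 3 sgCOX4I1 (red) libraries, with the guide number as the symbol and the mean and SD in black. The fold was widest for GPT2 (55.1 against 78.9 CPM), sat close for GOT2 (44.6 against 48.3 CPM) and lay on each other for PC (18.0 CPM in both), while GLUL alone was lower in every sgCOX4I1 library.

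Proline synthesis starts with ALDH18A1, the mitochondrial enzyme that reduces glutamate to the semialdehyde that forms pyrroline-5-carboxylate. The gene lies on the minus strand of chr10:95605941-95656711 (GRCh38, GENCODE 44). Its mRNA was 74.7, 64.1 and 63.5 CPM in sgCtrl #1, #2 and #3, against 89.8, 85.5 and 88.2 CPM in sgCOX4I1 #1, #2 and #3. Every sgCOX4I1 library lay above every sgCtrl library, and the 3 sgCOX4I1 values were closer to each other than those of sgCtrl. From 67.4 ± 6.31 to 87.8 ± 2.18 CPM (SD, n = 3 libraries each), ALDH18A1 rose with a log2 fold change of 0.38 ± 0.081 (SE, edgeR Benjamini-Hochberg adjusted p = 0.0316). Leaving out a library changed the number of all genes called, as given below. The ALDH18A1 call was not kept in every such fit. It was kept without sgCtrl #1 and was lost without sgCtrl #2 (edgeR adjusted p = 0.219), sgCtrl #3 (0.0643), sgCOX4I1 #1 (0.0566), sgCOX4I1 #2 (0.104) and sgCOX4I1 #3 (0.0978), with log2 fold changes between 0.34 and 0.46.

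PYCR1, the mitochondrial pyrroline-5-carboxylate reductase, completes proline synthesis and regenerates NAD(P)+. It lies on the minus strand of chr17:81932384-81942412, where genes on the same and on the opposite strand share 14.1% and 15.6% of its exonic sequence. PYCR1 mRNA was 77.3, 72.3 and 69.8 CPM in sgCtrl #1, #2 and #3, against 103, 94.1 and 86.9 CPM in sgCOX4I1 #1, #2 and #3. The groups did not overlap, and #1 was the highest library of each. Its mean rose from 73.1 ± 3.85 to 94.7 ± 8.15 CPM (SD, n = 3 each), with a log2 fold change of 0.37 ± 0.083 (SE, edgeR Benjamini-Hochberg adjusted p = 0.0353). The call was kept without sgCtrl #1 or sgCOX4I1 #3 and was lost without sgCtrl #2 (edgeR adjusted p = 0.220), sgCtrl #3 (0.0708), sgCOX4I1 #1 (0.0860) and sgCOX4I1 #2 (0.128). The log2 fold change of PYCR1 with a library left out lay between 0.31 and 0.43.

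None of the 6 tested genes of the list of other proline and ornithine enzymes had an adjusted p under 0.05 by edgeR, DESeq2 or limma-voom. An unadjusted p under 0.05 by edgeR was found for 1 of them (PEPD, which frees proline from dipeptides), against 2054 of all 11861 genes tested. PEPD had a log2 fold change of 0.20 ± 0.091 (SE) and OAT, which links ornithine to the same semialdehyde, of 0.20 ± 0.10 (SE). ALDH4A1, which runs proline breakdown to glutamate, was at 0.19 ± 0.16 (SE), and PYCR3, the cytosolic reductase, at 0.09 ± 0.12 (SE). P4HA1, a collagen prolyl hydroxylase, had a log2 fold change of 0.02. The median log2 fold change of these 6 genes was 0.14. PRODH, the first enzyme of proline breakdown, had 0 counts in every library, which allows up to 0.0972 to 0.174 CPM from counting error only, and ARG2 and P4HA2 were below the filter on low counts.

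GPT2, the mitochondrial alanine transaminase, passes the amino group of glutamate to pyruvate, giving alanine and α-ketoglutarate. It lies on the plus strand of chr16:46884362-46931289 and shares no annotated exonic base with another gene. GPT2 mRNA was 58.7, 55.3 and 51.2 CPM in sgCtrl #1, #2 and #3, against 82.3, 75.2 and 79.2 CPM in sgCOX4I1 #1, #2 and #3. The sgCOX4I1 libraries reached 149%, 137% and 144% of the sgCtrl mean, with a wide gap between the groups. GPT2 rose from 55.1 ± 3.78 to 78.9 ± 3.56 CPM (SD, n = 3 each), a log2 fold change of 0.52 ± 0.080 (SE, edgeR Benjamini-Hochberg adjusted p = 0.00501). A lower log2 fold change was found for 97.0% of all genes tested. The call was kept in 12 of the 13 alternatives and was lost without sgCtrl #2, where the log2 fold change was still 0.52 and the adjusted p 0.0731 by the same edgeR test.

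Its cytosolic counterpart GPT was rare, at 1.47, 1.68 and 1.62 CPM in sgCtrl against 0.891, 0.930 and 1.38 CPM in sgCOX4I1. All 3 sgCOX4I1 values of GPT lay below those of sgCtrl, with a log2 fold change of -0.55 ± 0.31 (SE) and an edgeR adjusted p of 0.389. Among the 6 tested genes of the list of other transaminases, edgeR and limma-voom called 1, PSAT1, and DESeq2 called 2, PSAT1 and BCAT1 (adjusted p = 0.0348 for BCAT1). PSAT1, which makes phosphoserine with glutamate as the amino donor, was 112, 93.0 and 87.7 CPM in sgCtrl against 185, 151 and 145 CPM in sgCOX4I1, and its groups did not overlap. PSAT1 rose by a log2 fold change of 0.72 ± 0.11 (SE, edgeR adjusted p = 0.00387), and the call was lost without sgCtrl #2 (adjusted p = 0.0925). The branched-chain transaminases BCAT1 and BCAT2 had log2 fold changes of 0.29 and 0.32 (edgeR adjusted p = 0.0777 and 0.138) with no overlap between groups. KYAT1 and KYAT3, which act on kynurenine and glutamine, were at -0.25 and -0.16. Every sgCOX4I1 library lay below every sgCtrl library for KYAT1, while the groups overlapped for KYAT3. TAT and AADAT had 0 counts in every library. The median log2 fold change of the 6 was 0.063.

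GOT1 and GOT2 are the cytosolic and mitochondrial aspartate transaminases and, with the malate dehydrogenases, form the malate-aspartate shuttle that carries reducing equivalents into mitochondria. GOT1 lies on the minus strand of chr10:99396870-99430624, and GOT2 on the minus strand of chr16:58707131-58734342, with 6 pseudogenes annotated by its name. GOT1 mRNA was 51.6, 46.0 and 45.2 CPM in sgCtrl #1, #2 and #3, against 56.9, 52.0 and 51.5 CPM in sgCOX4I1 #1, #2 and #3. The lowest sgCOX4I1 library, #3, lay just under the highest sgCtrl library, #1, so the groups touched. The log2 fold change of GOT1 was 0.17 ± 0.084 (SE, edgeR Benjamini-Hochberg adjusted p = 0.329).

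GOT2 mRNA was 46.6, 41.9 and 45.3 CPM in sgCtrl #1, #2 and #3, against 49.4, 47.0 and 48.4 CPM in sgCOX4I1 #1, #2 and #3. Here the sgCOX4I1 libraries were all above the sgCtrl libraries, by a margin smaller than the range of sgCtrl. The log2 fold change was 0.11 ± 0.080 (SE, edgeR adjusted p = 0.499). Neither GOT1 nor GOT2 was called in any of the 13 alternatives. The ratio of GOT1 to GOT2 counts was 1.11, 1.10 and 0.997 in sgCtrl and 1.15, 1.11 and 1.06 in sgCOX4I1, and the groups overlapped, with a difference in log2 ratio of 0.053 ± 0.059 (SE, two-sided exact permutation test p = 0.5, adjusted p = 0.5 over the 4 ratios compared).

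**Figure D2:**
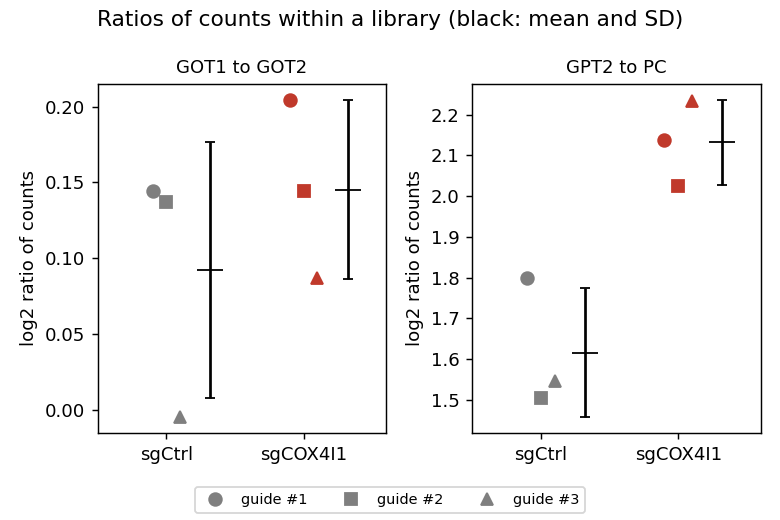
Log2 ratio of the counts of 2 genes within each library (vertical axes, which differ between the panels and do not start at 0 for GPT2 to PC) in sgCtrl (grey) and sgCOX4I1 (red), with the guide number as the symbol and the mean and SD in black. GPT2 to PC was higher in every sgCOX4I1 library, whereas GOT1 to GOT2 overlapped between the groups.

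Of the 12 tested genes listed beside them for aspartate metabolism and the malate-aspartate shuttle, 0 had an adjusted p under 0.05 by edgeR, DESeq2 or limma-voom. An unadjusted p under 0.05 by edgeR was found for 2054 of all 11861 genes tested and for 1 of these 12. That gene was CAD, which carries aspartate into pyrimidine synthesis, at 183, 196 and 170 CPM in sgCtrl against 210, 206 and 211 CPM in sgCOX4I1, with a log2 fold change of 0.19 ± 0.074 (SE, edgeR adjusted p = 0.200). MDH1, the cytosolic malate dehydrogenase, had a log2 fold change of 0.12, the malate carrier SLC25A11 of 0.13 and the plasma membrane aspartate and glutamate transporter SLC1A3 of 0.28 ± 0.14 (SE, edgeR adjusted p = 0.334). The mitochondrial aspartate-glutamate carriers SLC25A12 and SLC25A13 were at -0.07 and -0.01, and ADSS2, which joins aspartate to IMP on the way to AMP, was at 0.11. The median log2 fold change of the 12 was 0.061.

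ASNS, asparagine synthetase, uses glutamine to turn aspartate into asparagine and is a textbook target of the transcription factor ATF4. It lies on the minus strand of chr7:97851677-97872542, where 49.3% of its exonic bases are also annotated to another gene on the same strand, and 4 pseudogenes carry its name, so the counting may have lost some of its reads or given them to another gene. ASNS mRNA was 67.2, 56.0 and 54.0 CPM in sgCtrl #1, #2 and #3, against 87.1, 70.0 and 70.9 CPM in sgCOX4I1 #1, #2 and #3. The groups did not overlap, but the lowest sgCOX4I1 library lay close above sgCtrl #1. Its mean was 59.1 ± 7.11 CPM in sgCtrl and 76.0 ± 9.64 CPM in sgCOX4I1 (SD, n = 3 each), with a coefficient of variation of 12.0% and 12.7%, the widest of the 9 in both groups. The log2 fold change was 0.36 ± 0.10 (SE, edgeR Benjamini-Hochberg adjusted p = 0.0894). ASNS passed the threshold in 4 of the 13 alternatives, among them DESeq2 (adjusted p = 0.0403), edgeR without the filter on low counts (0.0221) and edgeR without sgCtrl #1, where the log2 fold change was 0.47 (edgeR adjusted p = 0.0133).

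Because ASNS and genes of proline synthesis are known targets of ATF4, the promoters of the 9 enzymes were searched on both strands for TGATGNAA, the core of the C/EBP-ATF response element, and for CACGTG, the E-box, in the window from 250 bases before to 50 after the gene start (RefSeq, GRCh38.p14). The promoters of 7 of the 9 were searched, those of GPT2 and PYCR1 not. TGATGNAA was in 2 of the 7 (ASNS and GOT1) and in 3.67% of 27305 promoters, and CACGTG in 1 of the 7 (ALDH18A1) and in 7.43% of them. The 3 stretches that hold a match are shown, all read on the minus strand, which is the strand of each gene, with the matched letters in capitals. The ASNS stretch (chr7:97872458-97872487) holds TGATGAAA from base -68, in the direction of the gene, and its 30 bases lie in an annotated exon of another ASNS transcript. The GOT1 stretch (chr10:99430755-99430874) holds the motif from base -198 in the opposite direction, so it reads as TTGCATCA. The ALDH18A1 stretch (chr10:95656842-95656961) ends with the E-box, whose first base is at -136 and which reads the same on both strands. None of these matches overlapped another, and the GOT1 and ALDH18A1 stretches lie in no annotated exon of their gene.
ASNS: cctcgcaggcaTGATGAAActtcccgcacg
GOT1: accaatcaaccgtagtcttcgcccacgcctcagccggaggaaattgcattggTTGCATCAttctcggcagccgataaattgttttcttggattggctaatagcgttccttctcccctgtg
ALDH18A1: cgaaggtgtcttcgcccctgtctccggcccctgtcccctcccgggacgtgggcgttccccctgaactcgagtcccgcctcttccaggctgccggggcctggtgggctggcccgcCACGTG
A match is a run of letters only, since binding was not measured. Of the 3 genes with a match, ALDH18A1 was called and ASNS and GOT1 were not.

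The mRNA of ATF4 itself was 634, 602 and 514 CPM in sgCtrl against 622, 579 and 544 CPM in sgCOX4I1, with overlapping groups and a log2 fold change of -0.0035 ± 0.092 (SE). ATF4 is controlled largely through translation, which these counts do not measure. Of the 7 genes listed for the ATF4 arm, 3 were called, all higher. Over all genes tested, 2.08% were called in either direction and 1.06% higher. The median log2 fold change of the 7 was 0.57, against -0.0023 for all genes tested. ATF5, a related factor of the mitochondrial stress response, rose from 36.6, 35.0 and 38.0 CPM to 58.7, 63.4 and 53.4 CPM (log2 fold change 0.68, edgeR Benjamini-Hochberg adjusted p = 0.00189) and was called in all 13 alternatives. CEBPB, a partner of ATF4, rose by a log2 fold change of 0.63 (edgeR adjusted p = 0.0259) and TRIB3, a pseudokinase that restrains ATF4, by 0.62 (0.0278). Both calls were lost without sgCtrl #2 (adjusted p = 0.220 each) and without sgCOX4I1 #2 (0.116 and 0.0741), that of CEBPB without sgCOX4I1 #3 (0.0522) and that of TRIB3 without sgCOX4I1 #1 (0.0538). ATF3 and DDIT3, stress factors downstream of ATF4, had log2 fold changes of 0.57 and 0.22 with adjusted p of 0.136 and 0.409 by the edgeR test. NUPR1, the remaining gene of the list, was at 0.19 ± 0.33 (SE, edgeR adjusted p = 0.811) with overlapping groups.

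GLUD1, glutamate dehydrogenase, converts glutamate to α-ketoglutarate in mitochondria and forms NAD(P)H in doing so. It lies on the minus strand of chr10:87050202-87094843, with 4 pseudogenes annotated by its name. GLUD1 mRNA was 276, 257 and 252 CPM in sgCtrl #1, #2 and #3, against 313, 292 and 290 CPM in sgCOX4I1 #1, #2 and #3. All sgCOX4I1 libraries lay above all sgCtrl libraries, with #1 the highest of each group. The mean was 262 ± 12.8 CPM in sgCtrl and 298 ± 12.5 CPM in sgCOX4I1 (SD, n = 3 each), a log2 fold change of 0.19 ± 0.073 (SE) that did not pass the test (edgeR unadjusted p = 0.0235, Benjamini-Hochberg adjusted p = 0.205). Its paralog GLUD2 was below the filter, with 2 to 6 counts in each library.

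GLUL, glutamine synthetase, makes glutamine from glutamate and ammonia, and lies on the minus strand of chr1:182378098-182392206 with 4 pseudogenes by name. GLUL mRNA was 504, 503 and 544 CPM in sgCtrl #1, #2 and #3, against 454, 471 and 493 CPM in sgCOX4I1 #1, #2 and #3. It was the only one of the 9 with every sgCOX4I1 library below every sgCtrl library, which was the case for 10.4% of all genes tested. The mean was 517 ± 23.6 CPM in sgCtrl and 473 ± 19.6 CPM in sgCOX4I1 (SD, n = 3 each), with a log2 fold change of -0.13 ± 0.075 (SE, edgeR Benjamini-Hochberg adjusted p = 0.406), and no alternative called it.

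All 9 tested genes of the list of other glutamine and glutamate genes had a log2 fold change above 0, with a median of 0.24. An unadjusted p under 0.05 by edgeR was found for 6 of them, against 2054 of all 11861 genes tested. The one called by edgeR was CTPS1, which makes CTP with glutamine as nitrogen donor and rose from 63.9, 67.4 and 66.3 CPM to 85.9, 83.3 and 80.2 CPM (log2 fold change 0.34, edgeR Benjamini-Hochberg adjusted p = 0.0335). The CTPS1 call was kept without sgCtrl #1 and lost without each of the others, at adjusted p of 0.156 without sgCtrl #2, 0.0529 without sgCtrl #3, and 0.0753, 0.116 and 0.0838 without sgCOX4I1 #1, #2 and #3. The glutamine carriers SLC38A1 and SLC1A5 had log2 fold changes of 0.38 and 0.24 (edgeR adjusted p = 0.0512 and 0.167), with SLC38A1 past the threshold by DESeq2 (adjusted p = 0.0104) and limma-voom (0.0494). GCLC, which starts glutathione synthesis from glutamate, was at 0.38 with overlapping groups (edgeR adjusted p = 0.136).

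PC, pyruvate carboxylase, makes oxaloacetate from pyruvate and so offers a route to aspartate that does not start from glutamine. It lies on the minus strand of chr11:66848417-66958386, and 8.50% of its exonic bases overlap a gene on the opposite strand. PC mRNA was 16.9, 19.5 and 17.5 CPM in sgCtrl #1, #2 and #3, against 18.7, 18.5 and 16.8 CPM in sgCOX4I1 #1, #2 and #3. The groups overlapped and both averaged 18.0 CPM, with an SD of 1.35 in sgCtrl and 1.03 in sgCOX4I1. The log2 fold change was 0.00 ± 0.11 (SE), on 310 to 526 counts per library, and across the alternatives it lay between -0.04 and 0.06. The ratio of GPT2 to PC, which both use mitochondrial pyruvate, was 3.48, 2.84 and 2.92 in sgCtrl and 4.40, 4.07 and 4.71 in sgCOX4I1, without overlap (log2 difference 0.52 ± 0.11, SE, two-sided exact permutation p = 0.1, the smallest possible with 3 against 3, adjusted p = 0.133 over the 4 ratios).

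In the list of other pyruvate and oxaloacetate genes, edgeR and limma-voom called 1 of 10 tested, ME1, and DESeq2 called 2, ME1 and ME2 (adjusted p = 0.0165 for ME2). ME1, the cytosolic malic enzyme that makes pyruvate and NADPH from malate, was scarce in sgCtrl at 2.18, 1.63 and 0.737 CPM and was 6.73, 5.87 and 4.22 CPM in sgCOX4I1, well apart. ME1 rose by a log2 fold change of 1.89 ± 0.32 (SE, edgeR Benjamini-Hochberg adjusted p = 0.00938), and the call was lost without sgCtrl #2 (adjusted p = 0.105) and without sgCOX4I1 #2 (0.0624). The mitochondrial malic enzyme ME2 and the mitochondrial phosphoenolpyruvate carboxykinase PCK2 had log2 fold changes of 0.31 and 0.32 (edgeR adjusted p = 0.0518 and 0.114). HLCS, which attaches biotin to PC, and citrate synthase CS were at 0.19 and 0.15. The median of the 10 was 0.10. ME3 had 0 counts in every library and PCK1 at most 1.

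Across the 6 lists together, 50 of 61 genes were tested and 6 were called, all higher in sgCOX4I1. Over all 11861 genes tested, 2.08% were called in either direction and 1.06% were called higher. Of the 50 log2 fold changes, 37 were above 0 and their median was 0.17. Over all genes tested, 5865 of 11861 were above 0 and the median was -0.0023. Of the 9 enzymes, 6 (ASNS, GOT2, GPT2, PYCR1, ALDH18A1 and GLUD1) had every sgCOX4I1 library above every sgCtrl library and 1 (GLUL) had every one below, against 11.2% and 10.4% of all genes tested. Of the 50 listed genes, 20 lay wholly above and 2 wholly below. The exact permutation p was 0.1, its smallest possible value, for the 7 enzymes without overlap, and was 0.2 for GOT1 and 1 for PC.

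**Figure D3:**
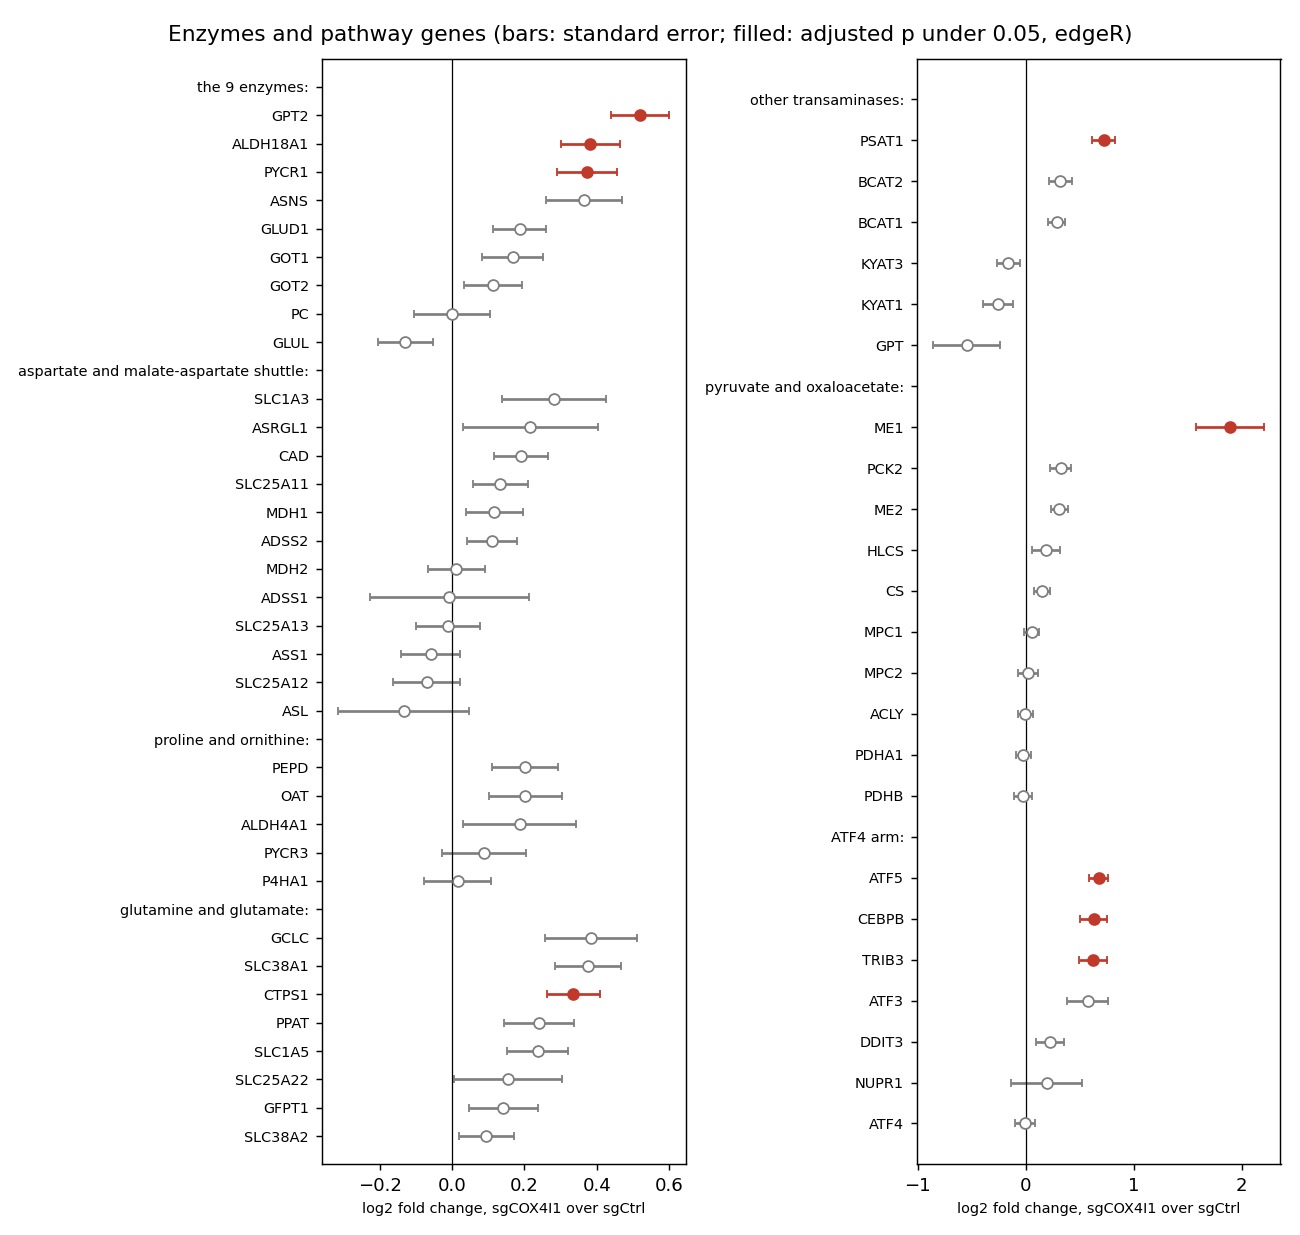
Log2 fold change of sgCOX4I1 over sgCtrl (horizontal axes, whose scales differ between the panels) with its standard error for the 9 enzymes and most of the tested genes of the 6 lists, filled red where the adjusted p from edgeR was under 0.05. GPT2 (0.52), ALDH18A1 (0.38) and PYCR1 (0.37) are filled among the enzymes, and CTPS1, PSAT1, ME1, ATF5, CEBPB and TRIB3 among the other genes.

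Within a group, most of the enzymes were highest in the library with the same number. The #1 library was the highest of its group in both sgCtrl and sgCOX4I1 for 7 of the 9, all but GLUL and PC, which was so for 22.1% of all genes tested. For GLUL the #3 library was highest in both groups, as for 14.4% of genes. As a description over the 6 libraries, the genes with the log2 CPM profile most like that of a called enzyme, among 8995 searched, were SLC7A1 (Pearson r = 0.992), FARSB (0.990) and EEA1 (0.989) for GPT2. For PYCR1 they were AMD1 (0.999), MED1 (0.996) and PDSS1 (0.995), and for ALDH18A1 they were SLC25A32 (0.995), MTO1 (0.994) and SEL1L3 (0.993). These r values combine the difference between groups with that between libraries, and they carry no test.

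Compared per length, in CPM per kb of the canonical transcript, the sgCtrl libraries ranged from 76.5 to 83.8 for GLUD1 and from 66.6 to 72.1 for GLUL, the most abundant of the 9. PYCR1 followed at 30.7 to 34.1. ASNS (22.6 to 28.2) and GOT1 (22.9 to 26.1) overlapped in range, as did ALDH18A1 (19.0 to 22.3) and GOT2 (17.3 to 19.3). The genes of a pair were not compared library by library, so the ranges do not settle which is higher. GPT2 stood at 12.8 to 14.7 and PC was lowest at 3.92 to 4.53. In sgCOX4I1 the means had the same order, but GPT2, at 18.8 to 20.6 CPM per kb, overlapped GOT2 at 19.4 to 20.4, and ALDH18A1, at 25.5 to 26.8, overlapped GOT1 at 26.0 to 28.8. The order rests on the length used. Over all annotated exons, an alternative chosen after the data were seen, the sgCtrl level of GLUL was 40.9 CPM per kb and that of GLUD1 18.3, under PYCR1 at 25.3 and GOT1 at 19.6, while ASNS was at 12.1, under ALDH18A1 at 17.9.

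**Figure D4:**
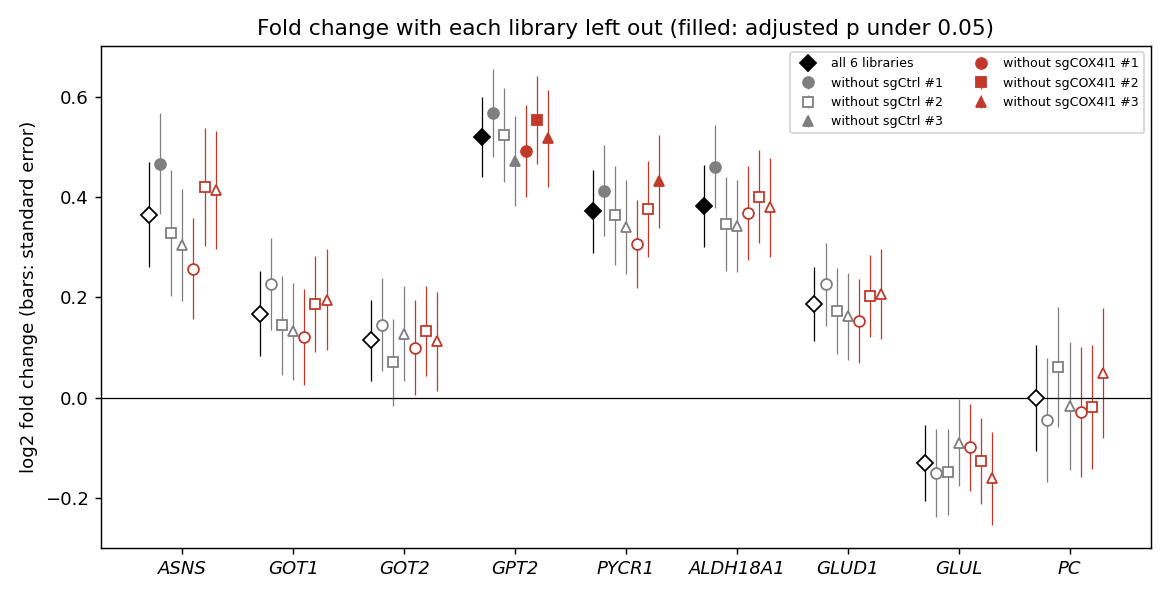
Log2 fold change of each enzyme (vertical axis) with its standard error in all 6 libraries (black diamonds) and with each library left out (grey without a sgCtrl library, red without a sgCOX4I1 library), filled where the adjusted p from edgeR was under 0.05. GPT2 stayed between 0.47 and 0.57 and was filled in all but 1 case, whereas PYCR1 and ALDH18A1 were mostly open and PC lay on both sides of 0.

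Without sgCOX4I1 #2, the library that retained most COX4I1 mRNA, the log2 fold changes were 0.55 for GPT2, 0.40 for ALDH18A1, 0.38 for PYCR1, 0.42 for ASNS, 0.20 for GLUD1, 0.19 for GOT1, 0.13 for GOT2, -0.02 for PC and -0.13 for GLUL. GPT2 alone was then called (edgeR Benjamini-Hochberg adjusted p = 0.0267). Over all genes, 51 were called without sgCOX4I1 #2, 24 without sgCtrl #2 and 561 without sgCtrl #1, against 247 with all libraries. Without sgCtrl #2 none of the 9 was called, and 4 had an unadjusted p under 0.05. The direction of 8 of the 9 log2 fold changes, all but that of PC, was the same in all 13 alternatives.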

How the data were processed

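RNA-seq of 6 Molm13-Cas9 libraries was used, 3 sgCtrl and 3 sgCOX4I1, grouped by their titles. The deposited values, 1 table for the series, are raw counts of reads, as whole numbers, on 19845 gene symbols. The methods of the study name trimming with Trimmomatic, alignment with Bowtie2 to GRCh38.p14 and counting with RSEM, whereas the submitters' processing notes name bcl2fastq 2.20.0.422, STAR 2.6.0a, edgeR and GRCh38, and the column names point to STAR, marked duplicates and HTSeq. How reads from pseudogenes, shared exons and duplicates were treated is therefore uncertain. The library kit was directional, and the strand setting of the counting is not given in the sources used here. The letter (C or K) and number of a column gave its sample, and 0 sample columns were left unused.

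Library totals ranged from 17241014 to 30861943 counts, with TMM factors from 0.987 to 1.01. At 0 counts, the limit of 3 counts is 0.0972 to 0.174 CPM, which covers counting error alone. Libraries of a group differed by more than sampling noise (chi-square per degree of freedom 10.6 to 26.6), so each counted as 1 sample.

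Tests were run in R 4.3.3 with edgeR 4.0.16 (TMM, filterByExpr, quasi-likelihood F test, no covariates) on 11861 genes with Benjamini-Hochberg adjustment, after being tested on simulated data. A gene was called at an adjusted p under 0.05, and the 2-fold rule of the study was counted beside it. Ratios of counts within a library were compared by two-sided exact permutation tests, 4 ratios in all. Some genes of the lists, and the ratios that use them, are not reported here, though counts and medians over a list include them. Log2 CPM for profiles used a prior count of 2, and genes of at least 10 mean CPM were searched for the 3 profiles most like each called enzyme. Positions and lengths came from GENCODE 44 and promoters from RefSeq. Named genes were all 9 enzymes, COX4I1, the called genes of each list and up to 5 per list with the smallest adjusted p. MPO, LYZ, KRT18, SLC25A12, SLC25A13, KYAT3 and ATF4 were named for their role after their values were seen, as was NUPR1 to complete its list. The genes of the lists at or near 0 counts were also named after their values were seen. The enzymes and lists, written from general knowledge, were chosen with earlier results of these data known.

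Alternatives, 13 in all, were DESeq2 1.42.0, limma-voom (limma 3.58.1), scaling by library size alone, no filter, a filter of 10 counts per library, a block for the replicate number, counts thinned to 17241014, and each library left out. Gene length over all exons was added after the data were seen. A planned comparison of the GOT1 and GOT2 proteins was not analysed here.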

Additional observations from a re-analysis of the deposited data

How the results depend on the processing

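Of the 9 enzymes, edgeR called 3, against 4 with DESeq2 or without the filter on low counts, and 0 to 4 with 1 library left out (0 without sgCtrl #2, 4 without sgCtrl #1). The count for the listed pathway genes was 6, against 11 without the filter and 1 (without sgCtrl #2) to 11 (without sgCtrl #1) with a library left out. For all genes it was 247, against 466 with DESeq2, 537 without the filter, and 24 (without sgCtrl #2) to 561 (without sgCtrl #1). By the rule with a fold of at least 2 it was 24, against 41 without the filter and 9 (without sgCtrl #2) to 50 (without sgCtrl #3). The cause was not tested. The ratios reported kept their direction throughout. A ratio of counts within a library does not depend on the fit, the scaling or the filter. Only thinning or leaving out a library could change it. For GOT1 to GOT2 the difference in log2 ratio, 0.053, was smaller than its SE of 0.059.

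The replicate numbers name guides, and the labels give nothing else that libraries of the same number share. Whether such libraries were handled together was not stated. Deviations from the group means correlated at 0.382, -0.0244 and 0.294 for #1, #2 and #3, and the #1 and #3 libraries correlated best with their own number while the #2 libraries did not. With the replicate block, 5 of the 9 enzymes (ASNS at an adjusted p of 0.00102 and GLUD1 at 0.0311 by edgeR were added), 17 pathway genes, 1408 of all genes and 57 by the 2-fold rule were called.

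Of the enzymes not called with all libraries and no block, GOT1, GOT2, GLUL and PC were called in none of the 13 alternatives, which does not show that their levels were equal between the groups.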
